A study of Mus musculus with 6 samples.

Results

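The mu, theta and kappa glutathione transferases were followed as 10 genes of mouse liver, namely Gstm1, Gstm2, Gstm3, Gstm4, Gstm6 and Gstm7 of the mu class, Gstt1, Gstt2 and Gstt3 of the theta class, and Gstk1, the kappa enzyme. They were taken by gene name from the 13273 protein-coding genes of the RNA-seq table, and all 10 were found there. The livers came from C57Bl/6 wild type (WT) female mice that were 2 months old when feeding began. The Lieber–DeCarli liquid diet was given for 3 weeks, which include the first days on control diet. After those days the 3 ETOH-WT mice drank it with ethanol (ETOH) in rising steps, the last being 6.4% v/v. The 3 pair-fed mice (PF-WT) drank its isocaloric control without ETOH. Each library came from 1 mouse, and all mice first drank the control diet and were housed with 2 mice per cage. The sample code changed only with the diet, so a cage or cohort behind it cannot be told apart from ETOH.

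Glutathione transferases join reduced glutathione to electrophilic compounds, such as products of lipid peroxidation and of drug metabolism, which makes them more soluble and ready for export. The mu and theta enzymes are soluble dimers of the cytosol, where the mu class is abundant in rodent hepatocytes and the theta class acts on small molecules such as haloalkanes. Gstk1 lies in mitochondria and peroxisomes and is structurally unlike the soluble classes.

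Levels are given in FPKM, fragments scaled by transcript length and library depth, a unit taken from the values themselves since the sources used here do not name it. FPKM summed to 570652 to 625003 in ETOH-WT livers and to 567808 to 577297 in PF-WT livers, sums that do not give the depth. ETOH-WT liver 1 had no gene listed at 0, against 86 to 163 genes in each of the other livers. Every gene of the table was therefore above 0 in that ETOH-WT liver, and shares over all genes refer to this set. Whether genes were left out of the table because of that liver was not tested. The liver label was checked on 6 hepatocyte markers including Alb, which was at 46953 to 52847 FPKM in ETOH-WT livers and 53968 to 60199 FPKM in PF-WT livers. The 6 markers summed to 62489 to 68117 FPKM in ETOH-WT livers and 70630 to 79381 FPKM in PF-WT livers, without overlap. Most of each sum was Alb, so the sums say little about the other markers. Ttr was also lower in every ETOH-WT liver than in any PF-WT liver. Apoa1, Cps1, Apob and Serpina1a overlapped between the diets, and the means of Apob and Serpina1a were higher in ETOH-WT livers. No marker passed limma, and none had an unadjusted p under 0.05. In bulk tissue, fewer cells of a type and less RNA per cell cannot be told apart.

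For each of the 6 mu genes a transcript with a coding sequence of 654 bases was taken, the greatest length found among the transcripts of all 6. Their likeness is shown first because it limits how well short reads separate them. The first 90 coding bases of each (GENCODE vM21 transcripts, build GRCm38) follow, with capitals at the positions that differ from Gstm1.
Gstm1: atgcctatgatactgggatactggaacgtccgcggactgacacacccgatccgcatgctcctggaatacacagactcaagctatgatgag
Gstm2: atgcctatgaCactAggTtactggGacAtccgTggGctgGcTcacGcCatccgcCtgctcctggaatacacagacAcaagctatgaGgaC
Gstm3: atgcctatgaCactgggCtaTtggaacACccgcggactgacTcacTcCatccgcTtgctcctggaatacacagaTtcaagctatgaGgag
Gstm4: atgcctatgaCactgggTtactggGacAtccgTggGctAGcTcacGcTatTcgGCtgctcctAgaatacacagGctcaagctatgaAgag
Gstm6: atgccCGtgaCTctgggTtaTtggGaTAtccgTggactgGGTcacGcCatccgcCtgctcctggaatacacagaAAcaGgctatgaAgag
Gstm7: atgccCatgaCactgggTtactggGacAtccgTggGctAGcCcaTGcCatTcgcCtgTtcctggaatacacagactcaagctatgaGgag

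Within these 90 bases Gstm3 differed from Gstm1 at 11 positions, Gstm2 at 15, Gstm4 and Gstm7 at 17, and Gstm6 at 20. Over the whole coding sequence, Gstm1 and Gstm3 were the closest pair, with 89.4% identical bases, and Gstm3 and Gstm4 the most distant, with 79.1%. The reads were 51 bases long, so stretches of 51 transcript bases that recur in another gene were counted. They made up 28.4% of the stretches of Gstm3, 18.5% of those of Gstm1, 12.4% of those of Gstt3, 5.83% of those of Gstm6 and 5.48% of those of Gstm2. For Gstm7 and Gstt2 these shares were 0.414% and 0.542%, and for Gstm4, Gstt1 and Gstk1 no stretch recurred. Part of this was shared with pseudogenes and predicted genes rather than among the 10, since stretches that recur in another of the 10 were 15.5% for Gstm3 and 8.61% for Gstm1. Gstm3 shared 197 stretches with Gm8834, 137 with Gstm2-ps1, 121 with Gstm1 and 75 with Gstm6, Gstm1 shared 210 with Gstm2-ps1, and Gstt3 shared 475 with the predicted gene Gm20441. The longest run common to Gstm3 and Gstm6 is given here in full because these neighbors differed between the diets in opposite directions. It spans coding bases 169 to 293 of both genes, 125 bases without a difference.
Gstm3 and Gstm6: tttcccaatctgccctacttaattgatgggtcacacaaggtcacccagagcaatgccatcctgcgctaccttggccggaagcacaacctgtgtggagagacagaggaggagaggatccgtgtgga
A read inside this run fits both genes, but the reads were paired, and a mate outside the run can tell them apart. The sources used here do not say how the authors' counting treated such reads, so the levels of Gstm1, Gstm3, Gstm6, Gstm2 and Gstt3 carry that uncertainty.

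Of the 10 genes, 3 were higher in ETOH-WT livers (Gstm1, Gstm3 and Gstt2) and 1 was lower (Gstm6). A gene was called at an adjusted p under 0.05 in limma, fitted on log2(FPKM + 1) to all 11346 genes that averaged 0.5 FPKM or more, which included all 10. Of those 11346 genes 6.64% were called, 3.97% as higher and 2.67% as lower. The 3 ETOH-WT values and the 3 PF-WT values did not overlap for 7 of the 10 genes, 4 of them higher (Gstm1, Gstm3, Gstm4 and Gstt2) and 3 lower (Gstm6, Gstm7 and Gstk1). The same held for 29.1% of all genes tested, 17.9% as higher and 11.2% as lower. Before adjustment 7 of the 10 genes had a p under 0.05, against 23.7% of all genes tested. The median log2 difference of the 10 genes was 0.00, beside 0.02 over all genes tested, while the median of its absolute size was 0.72, beside 0.15. Of all genes 753 were called with the 6 livers, but 159 without PF-WT liver 2, 190 without ETOH-WT liver 3, 449 without ETOH-WT liver 1 and 470 without PF-WT liver 1, whereas 3 to 5 of the 10 genes were called in each of these fits.

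**Figure D1:**
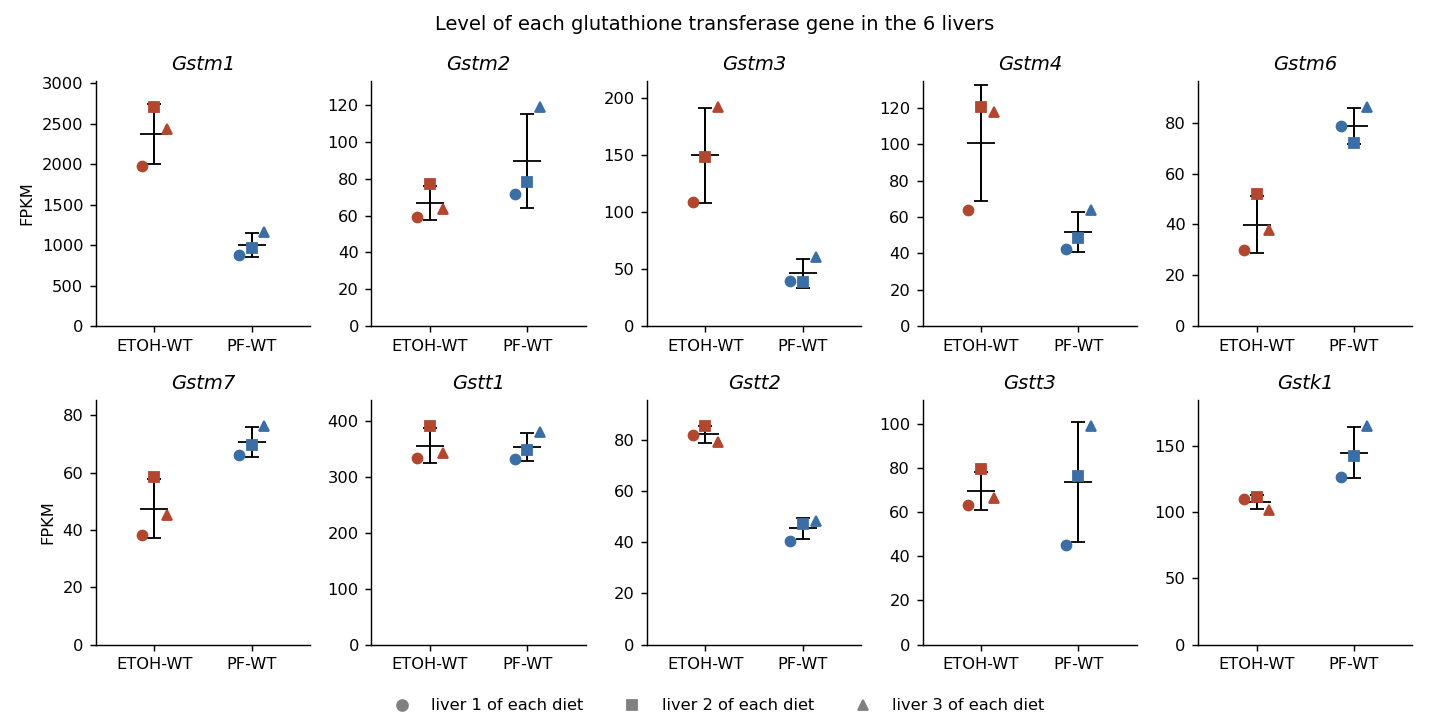
FPKM (vertical axes, each starting at 0) of the 10 genes in the 3 ETOH-WT livers (left, red) and the 3 PF-WT livers (right, blue), where the symbol shape gives the liver number and the bars are the mean ± SD. Gstm1, Gstm3, Gstm4 and Gstt2 were above every PF-WT liver in all 3 ETOH-WT livers, Gstm6, Gstm7 and Gstk1 were below, and Gstm2, Gstt1 and Gstt3 overlapped.

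Gstm1, the mu enzyme with the highest level here (ENSMUSG00000058135, chromosome 3 of GRCm38, 108012255 to 108017973, minus strand), was at 1972, 2701 and 2439 FPKM in ETOH-WT livers 1, 2 and 3, against 873, 968 and 1159 FPKM in PF-WT livers 1, 2 and 3. Even the lowest ETOH-WT liver was above the highest PF-WT liver. The means were 2370.4 ± 369 FPKM and 999.9 ± 145 FPKM (SD, n = 3 mice each), a ratio of 2.37. The log2 difference was 1.24 (standard error 0.16, adjusted p = 0.00748 from limma), and the adjusted p stayed between 0.00837 and 0.0409 when any 1 liver was left out.

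Gstm3, the closest relative of Gstm1 among the 6 (ENSMUSG00000004038, 107963696 to 107969283), had 109, 148 and 192 FPKM in ETOH-WT livers and 39.5, 38.4 and 60.8 FPKM in PF-WT livers. The groups did not overlap, and ETOH-WT liver 3 was the highest of the 6. With means of 149 ± 41.3 FPKM and 46.2 ± 12.6 FPKM (SD, n = 3 each) and a ratio of 3.23, Gstm3 had the largest log2 difference of the 10 genes, 1.67 (standard error 0.23, adjusted p = 0.00959, and 0.00824 to 0.0468 with 1 liver left out). It ranked 3 of 10 by mean level in ETOH-WT livers and 9 of 10 in PF-WT livers.

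Gstm4 (ENSMUSG00000027890, 108040408 to 108044894) was at 64.0, 120 and 118 FPKM in ETOH-WT livers, against 42.5, 48.5 and 63.8 FPKM in PF-WT livers. The groups were apart only by the narrow gap between ETOH-WT liver 1 and PF-WT liver 3. Its log2 difference of 0.91 (standard error 0.25) did not pass limma, with an adjusted p of 0.0694. With 1 liver left out, the adjusted p was 0.0184 to 0.203, and only the fit without ETOH-WT liver 1 passed. It was 0.0335 with the replicate number as a block and 0.0102 with array weights, which give less weight to livers that fit poorly. Array weights called 2272 of all genes, against 753 without them. Gstm4 shared no stretch of 51 bases with any other gene.

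Gstm6 (ENSMUSG00000068762, 107938847 to 107943749), the next gene of the cluster beside Gstm3, moved the other way. It was at 29.8, 52.1 and 37.8 FPKM in ETOH-WT livers and 78.6, 71.9 and 86.1 FPKM in PF-WT livers. Every ETOH-WT liver was below every PF-WT liver, with means of 39.9 ± 11.3 FPKM and 78.8 ± 7.11 FPKM (SD, n = 3 each). The log2 difference of -0.997 (standard error 0.18) passed limma at an adjusted p of 0.0219, but not without ETOH-WT liver 3 (0.0843), PF-WT liver 1 (0.0557), PF-WT liver 2 (0.0699) or PF-WT liver 3 (0.0576). The log2 difference lay between -1.06 and -0.93 in these 4 fits.

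Gstm7 (ENSMUSG00000004035, 107926334 to 107931817) had 38.4, 58.6 and 45.1 FPKM in ETOH-WT livers and 66.0, 69.8 and 76.4 FPKM in PF-WT livers. These groups did not overlap either, but the log2 difference of -0.59 (standard error 0.15) missed the threshold at an adjusted p of 0.0561. With 1 liver left out, the adjusted p was 0.0152 to 0.171, and only the fit without ETOH-WT liver 2 passed. The difference also passed with quantile normalization (0.034) and with array weights (0.00628). Gstm2 (ENSMUSG00000040562, 107981702 to 107986453) was at 59.5, 77.1 and 63.7 FPKM in ETOH-WT livers and 71.8, 78.5 and 119 FPKM in PF-WT livers. Its groups overlapped, PF-WT liver 3 stood above all others, and the log2 difference was -0.39 with a 95% interval of -0.83 to 0.04 (adjusted p = 0.257).

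Summed over the 6 genes, mu FPKM were 2272, 3157 and 2894 in ETOH-WT livers, against 1172, 1275 and 1565 in PF-WT livers, a ratio of means of 2.08. Gstm1 made up most of this sum. Without it the other 5 genes came to 301, 456 and 456 FPKM in ETOH-WT livers and 298, 307 and 406 FPKM in PF-WT livers, and these sums overlapped. The make-up of the mu sum differed in every liver between the diets for several genes. Gstm1 took 85.5% ± 1.256 of it in ETOH-WT livers and 74.8% ± 0.963 in PF-WT livers (SD, n = 3 each). Gstm6 took 1.42% ± 0.198 in ETOH-WT livers and 5.95% ± 0.659 in PF-WT livers, and Gstm7 took 1.70% ± 0.149 in ETOH-WT livers and 5.33% ± 0.397 in PF-WT livers. The share of Gstm4 was 3.56% ± 0.658 in ETOH-WT livers and 3.84% ± 0.224 in PF-WT livers, with overlap. Shares of 1 sum depend on each other, so a higher Gstm1 alone lowers those of the other genes. The ratio of mean FPKM, ETOH-WT over PF-WT, was 0.506 for Gstm6, 0.669 for Gstm7 and 1.95 for Gstm4.

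Ratios between mu genes of the same liver do not depend on the scaling of the library. Gstm3 over Gstm6 was 3.65, 2.83 and 5.07 in ETOH-WT livers, against 0.503, 0.535 and 0.706 in PF-WT livers. Thus Gstm3 had the higher FPKM in each ETOH-WT liver and Gstm6 in each PF-WT liver. Gstm1 over Gstm2 was 33.1, 35.0 and 38.3 in ETOH-WT livers and 12.2, 12.3 and 9.75 in PF-WT livers, which again did not overlap. Gstm1 over Gstm4, genes that both had higher FPKM in ETOH-WT livers, was 30.8, 22.4 and 20.8 in ETOH-WT livers and 20.5, 19.96 and 18.2 in PF-WT livers, with only a narrow gap between the groups. The ratios are given as descriptions, without a test.

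**Figure D2:**
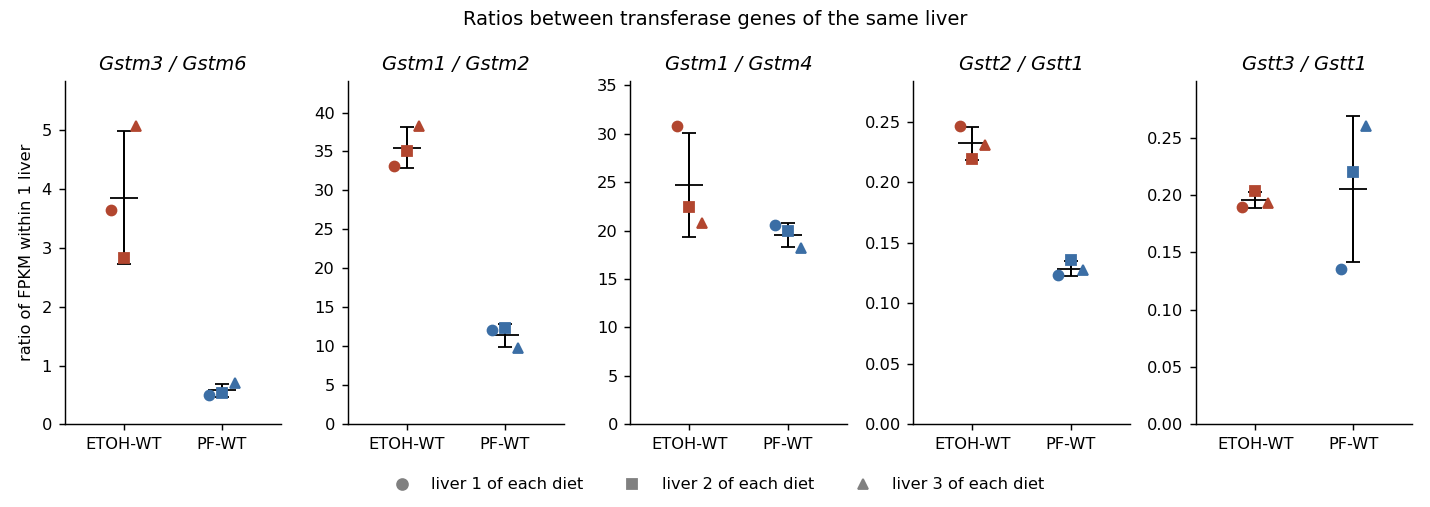
Ratio of the FPKM of 2 transferase genes within the same liver (vertical axes, linear and starting at 0) for 3 ETOH-WT livers (left, red) and 3 PF-WT livers (right, blue), with the symbol shape giving the liver number and bars for the mean ± SD. Gstm3 over Gstm6 was at least 2.83 in ETOH-WT livers and at most 0.706 in PF-WT livers, while Gstt3 over Gstt1 overlapped.

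The mu genes lie in 1 tandem cluster on chromosome 3, in the order Gstm7, Gstm6, Gstm3, Gstm2, Gstm1 and Gstm4, all on the minus strand, with Gstm5 on the plus strand beside Gstm7. Along this order the log2 differences were -0.59, -0.997, 1.67, -0.39, 1.24 and 0.91, so that Gstm2 stood between Gstm3 and Gstm1, both higher, without passing limma itself. Gstm5, the remaining mu gene (ENSMUSG00000004032, 107895821 to 107898686), was at 18.9, 22.3 and 19.6 FPKM in ETOH-WT livers and 14.2, 14.3 and 14.6 FPKM in PF-WT livers, a log2 difference of 0.47 (standard error 0.09, adjusted p = 0.0261). It no longer passed without ETOH-WT liver 3 (0.0841), PF-WT liver 1 (0.0658), PF-WT liver 2 (0.108) or PF-WT liver 3 (0.0554). The other genes within 150000 bases, Ampd2, Gnat2, Gnai3 and Amigo1, did not pass, beside 6.64% called of all genes tested.

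The sequence just upstream of Gstm3 and Gstm6, which went opposite ways, and of Gstm1 and Gstm4 is shown for comparison (RefSeq start windows, build GRCm38.p6, written 5′ to 3′ on the strand of the gene and ending where the gene begins). Capitals mark a GCGTG, the core that the Ah receptor complex binds, or a GGGCGG, the GC box bound by Sp1.
Gstm1, chr3:108017974-108018223, minus strand: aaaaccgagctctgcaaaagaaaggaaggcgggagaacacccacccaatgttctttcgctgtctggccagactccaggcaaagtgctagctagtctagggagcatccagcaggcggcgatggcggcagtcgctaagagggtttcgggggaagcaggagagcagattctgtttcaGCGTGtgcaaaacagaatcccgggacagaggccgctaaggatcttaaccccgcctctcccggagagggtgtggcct
Gstm3, chr3:107969284-107969424, minus strand: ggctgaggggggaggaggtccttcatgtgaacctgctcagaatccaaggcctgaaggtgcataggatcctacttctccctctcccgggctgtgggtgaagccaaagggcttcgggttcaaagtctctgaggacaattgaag
Gstm4, chr3:108044895-108045109, minus strand: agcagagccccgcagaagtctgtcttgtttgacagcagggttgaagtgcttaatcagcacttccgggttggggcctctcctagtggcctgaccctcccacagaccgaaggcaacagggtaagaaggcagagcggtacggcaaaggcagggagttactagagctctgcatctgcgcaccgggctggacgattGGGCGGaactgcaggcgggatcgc
Gstm6, chr3:107943750-107943984, minus strand: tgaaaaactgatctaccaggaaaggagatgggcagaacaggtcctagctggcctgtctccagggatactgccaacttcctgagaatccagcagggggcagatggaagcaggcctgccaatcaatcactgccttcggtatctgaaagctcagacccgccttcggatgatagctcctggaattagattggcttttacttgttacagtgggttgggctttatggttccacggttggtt

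In the 250 bases before the annotated start, searched on both strands, TGACNNNGC, the core of the antioxidant response element, occurred in 0 of the 9 genes that had a window, and in 10.2% of 32851 mouse start windows. GCGTG occurred in 1 of the 9, Gstm1, at 76 bases before its start, and in 28.2% of all windows. GGGCGG occurred in 3 of the 9, Gstm3, Gstm4 and Gstk1, and in 32.7% of all windows. None of these matches overlapped another, and the GC box of Gstm3 and 1 of the 2 in Gstm4 lie beyond the printed stretch. Where a gene had several annotated starts, only the nearest was searched. The window of Gstt1 lies 853 bases inside the locus given in the table, downstream of its start codon, and counts among the 9. A match is a run of letters, not a measured site.

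**Figure D3:**
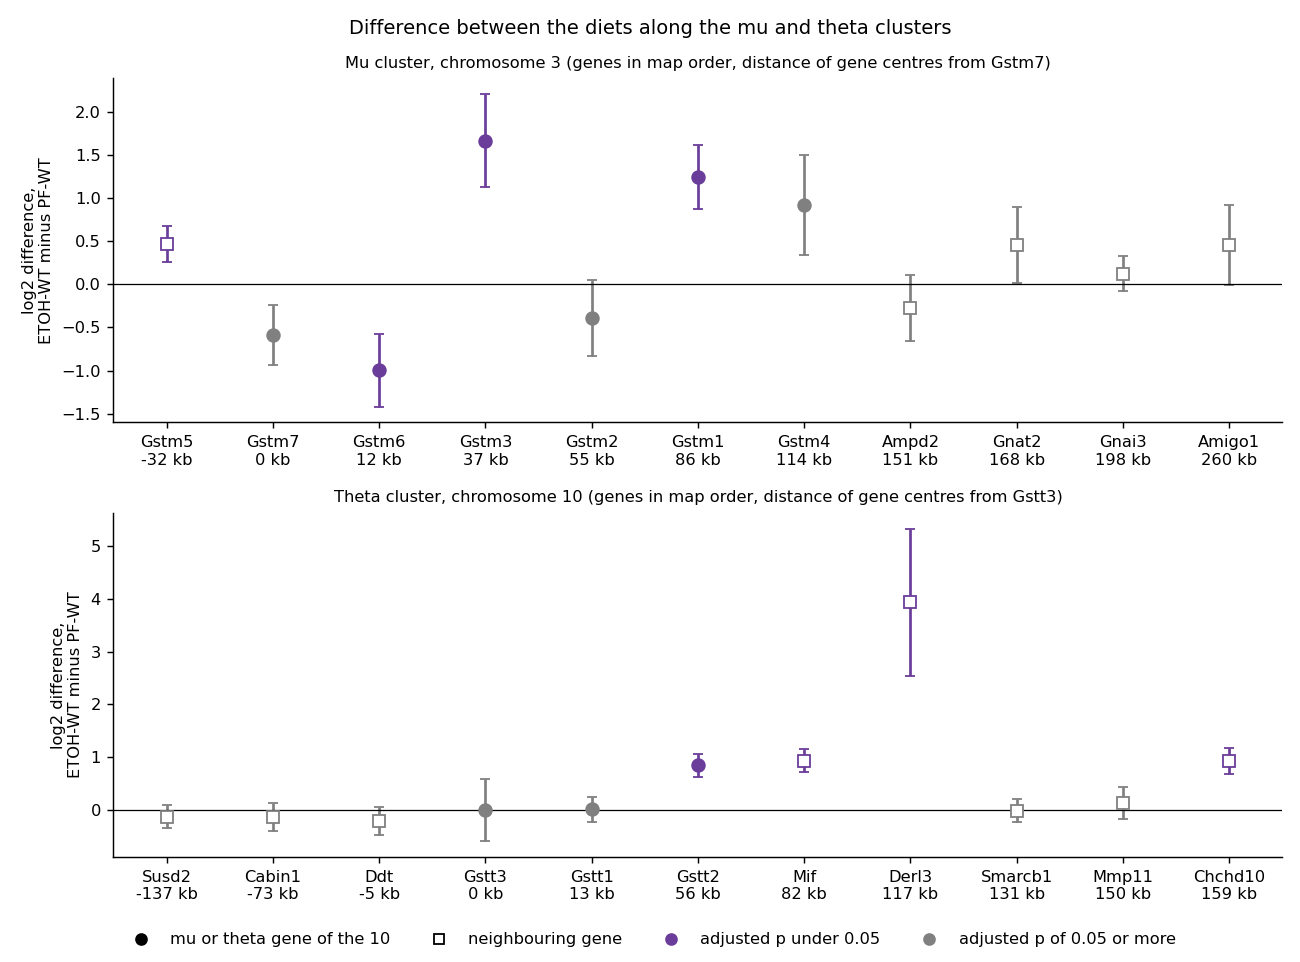
Log2 difference, ETOH-WT minus PF-WT, of log2(FPKM + 1) with its 95% interval (vertical axes) for the tested genes of the mu cluster (top) and the theta cluster (bottom), in map order from left to right with the distance of gene centres from Gstm7 or Gstt3. Filled circles are mu or theta genes of the 10, open squares are neighbors, and purple marks an adjusted p under 0.05. In the mu cluster Gstm6 (-0.997) and Gstm3 (1.67) stand next to each other, and in the theta cluster Gstt2, Mif, Derl3 and Chchd10 were higher.

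Of the theta genes, Gstt2 was higher in ETOH-WT livers, whereas Gstt1 and Gstt3 did not pass. Gstt2 (ENSMUSG00000033318, chromosome 10, 75831845 to 75834881, minus strand) was at 82.2, 85.6 and 79.1 FPKM in ETOH-WT livers, against 40.7, 47.1 and 48.5 FPKM in PF-WT livers. Its livers lay close together within each diet, and the groups were far apart. The log2 difference of 0.85 had the smallest standard error of the 10 genes, 0.09, and the lowest adjusted p, 0.00444 from limma (0.00824 to 0.0248 with 1 liver left out).

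Gstt1 (ENSMUSG00000001663, 75783813 to 75798584), which had the second highest level of the 10 genes in both diets, was at 333, 391 and 343 FPKM in ETOH-WT livers and 331, 347 and 381 FPKM in PF-WT livers. The groups overlapped throughout their range. The log2 difference of 0.01 had a 95% interval of -0.23 to 0.25 (adjusted p = 0.962). Gstt3 (ENSMUSG00000001665, 75774115 to 75781414) was at 63.3, 79.4 and 66.3 FPKM in ETOH-WT livers and 44.9, 76.4 and 99.0 FPKM in PF-WT livers. The PF-WT livers held both the lowest and the highest value, with a coefficient of variation of 37.0%, the widest of the 10 genes in either diet. Its log2 difference of -0.01 had a 95% interval of -0.60 to 0.58 (adjusted p = 0.986), so a difference of moderate size in either direction lay within the interval.

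The theta sum was 479, 556 and 488 FPKM in ETOH-WT livers and 416, 470 and 528 FPKM in PF-WT livers, which overlapped. Gstt2 made up 16.3% ± 0.882 of it in ETOH-WT livers and 9.65% ± 0.422 in PF-WT livers (SD, n = 3 each). Gstt2 over Gstt1 within a liver was 0.246, 0.219 and 0.231 in ETOH-WT livers, against 0.123, 0.136 and 0.127 in PF-WT livers, without overlap, while Gstt3 over Gstt1 overlapped.

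Of all genes tested, 3.97% were called higher and 2.67% lower. Of the 9 other genes within 150000 bases of the theta genes, 3 were higher, none was lower, 5 did not pass and 1 was too low to test. All 3 lie on the Gstt2 side, as do Smarcb1, between Derl3 and Chchd10 (log2 difference -0.02, adjusted p = 0.941), and Mmp11 (log2 difference 0.13, adjusted p = 0.614), which did not pass. Mif, a cytokine with tautomerase activity (ENSMUSG00000033307, 75859353 to 75860250), was at 312, 330 and 335 FPKM in ETOH-WT livers and 152, 181 and 177 FPKM in PF-WT livers, a log2 difference of 0.94 (standard error 0.10, adjusted p = 0.00368). Chchd10, a protein of the mitochondrial intermembrane space, was at 705, 774 and 809 FPKM in ETOH-WT livers and 438, 364 and 404 FPKM in PF-WT livers (log2 difference 0.92, adjusted p = 0.00531). Derl3, which takes part in the removal of misfolded proteins from the endoplasmic reticulum, was at 35.9, 12.1 and 73.0 FPKM in ETOH-WT livers and 2.83, 0.844 and 0.390 FPKM in PF-WT livers, and its adjusted p of 0.0125 became 0.0533 without PF-WT liver 2. On the other side of the cluster, Ddt, the relative of Mif that adjoins Gstt3, was at 573, 620 and 534 FPKM in ETOH-WT livers and 596, 683 and 725 FPKM in PF-WT livers and did not pass (adjusted p = 0.299).

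Gstk1 (ENSMUSG00000029864, chromosome 6, 42245935 to 42250447, plus strand) was at 110, 111 and 102 FPKM in ETOH-WT livers, against 127, 143 and 165 FPKM in PF-WT livers. All ETOH-WT livers were below all PF-WT livers. The log2 difference of -0.42 (standard error 0.11, 95% interval -0.67 to -0.16) did not pass limma, with an adjusted p of 0.0642. With 1 liver left out, the adjusted p was 0.0484 to 0.197, and only the fit without PF-WT liver 1 passed. The difference also passed with quantile normalization (0.0359) and with array weights (0.00996). Of 11 genes whose products share the peroxisome or the mitochondrion with Gstk1, among them catalase and the peroxin Pex5, none passed limma in either direction (1 was higher at a p under 0.05 before adjustment), and the median log2 difference was 0.01. None of the tested genes within 150000 bases of Gstk1 passed either, nor did any have a p under 0.05 before adjustment. Of all genes tested, 6.64% were called and 23.7% had a p under 0.05 before adjustment. With so few genes, none called is close to the share over all genes.

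**Figure D4:**
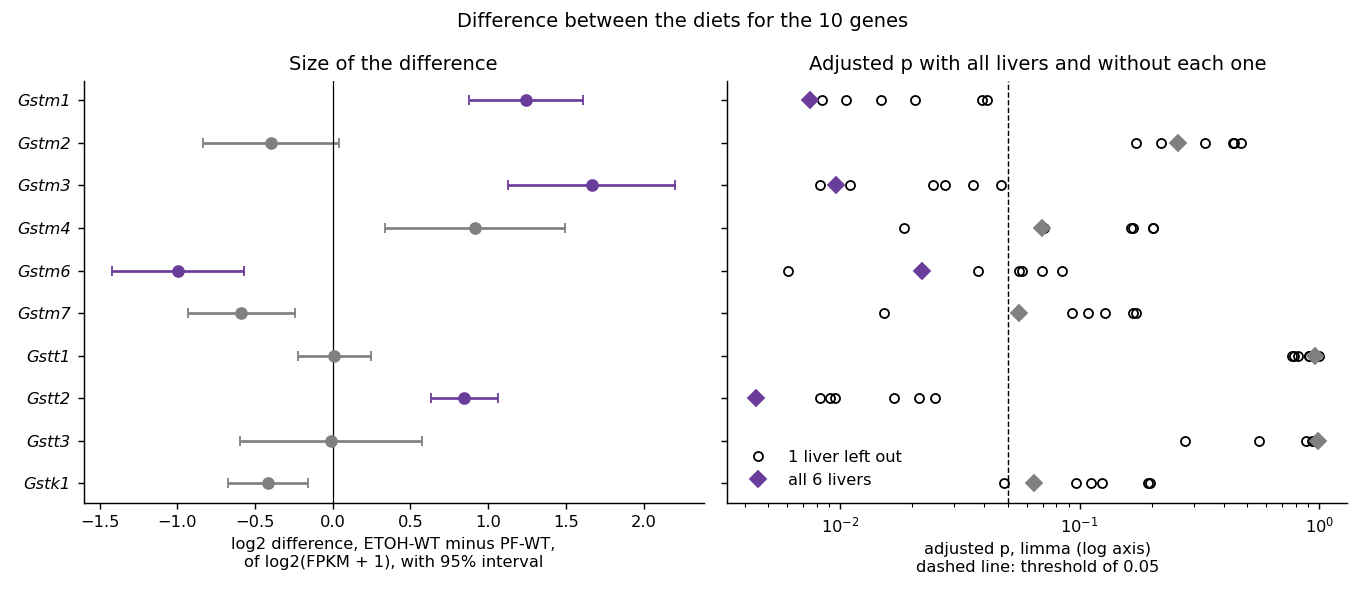
Left, log2 difference, ETOH-WT minus PF-WT, of log2(FPKM + 1) with its 95% interval for each of the 10 genes. Right, adjusted p from limma on a log axis with all 6 livers (diamonds) and with each liver left out in turn (open circles), where purple marks genes past the threshold of 0.05 (dashed line) with all livers. Gstm1, Gstm3 and Gstt2 stayed left of the line in every fit, whereas Gstm6 lay to its right in 4 of the 6 fits with a liver left out.

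In order of mean level, Gstm1 and Gstt1 led in both diets, each above the next gene in every liver of its diet. In ETOH-WT livers they were followed by Gstm3, Gstk1, Gstm4, Gstt2, Gstt3, Gstm2, Gstm7 and Gstm6. From Gstm3 down to Gstm2 each gene overlapped its neighbor in this order, as did Gstm7 and Gstm6 with each other. In PF-WT livers the order was Gstk1, Gstm2, Gstm6, Gstt3, Gstm7, Gstm4, Gstm3 and Gstt2, where Gstk1 was above Gstm2 and Gstm7 above Gstm4 in every liver and the other neighbors overlapped.

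The 10 genes also varied together within a diet. PF-WT liver 3 was the highest of its diet for all 10 genes, whereas it was the highest for 24.8% of all genes tested. PF-WT liver 1 was the lowest for 8 of the 10, against 26.2% of all genes. ETOH-WT liver 2 was the highest of its diet for 9 of the 10, against 38.7% of all genes, and ETOH-WT liver 1 was the lowest for 8, against 30.4%. The exception at the top was Gstm3, highest in ETOH-WT liver 3. Within each diet the genes therefore differed from liver to liver in nearly the same order, also where they differed between the diets in opposite directions. Median-ratio size factors, a measure of the overall scale of a library, ran the other way in PF-WT mice, at 0.943 for liver 3 and 1.03 for liver 1.

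Genes whose levels followed those of the class leaders over the 6 livers were sought among the 4756 genes that averaged 10 FPKM or more, by Pearson correlation of log2(FPKM + 1). These values are descriptions, since the 6 points share 2 diets and only the highest r of these many genes are given. For Gstm1 they were Iscu, a scaffold of iron-sulfur cluster assembly (r = 0.998), Phyhd1, a dioxygenase (r = 0.995), and Anxa7, an annexin (r = 0.993). Their log2 differences were smaller, at 0.34, 0.31 and 0.39, against 1.24 for Gstm1. Phyhd1 did not pass limma (adjusted p = 0.062). The nearest to Gstt1 were Churc1 (r = 0.992), the pyruvate carrier gene Mpc1 and the complex I gene Ndufa6 (both r = 0.987). For Gstk1 they were the ornithine carrier gene Slc25a15 (r = 0.993), Gstz1, the zeta transferase that isomerizes maleylacetoacetate (r = 0.991), and Zfc3h1 (r = 0.991).

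Among 11 tested transferase genes of other classes, together with Gstm5, 5 were higher in ETOH-WT livers, none was lower and 6 did not pass (6 higher and 1 lower at a p under 0.05 before adjustment), and the median log2 difference was 0.47. The higher ones were Gstm5, Gstp1, Gsta2, Gsta4 and Mgst3. Of all genes tested, 6.64% were called, 23.7% had a p under 0.05 before adjustment, and the median log2 difference was 0.02. Gstp1, the pi enzyme, was at 334, 486 and 461 FPKM in ETOH-WT livers and 142, 123 and 118 FPKM in PF-WT livers (log2 difference 1.72, standard error 0.15, adjusted p = 0.0018). Gsta2, of the alpha class, was at 15.1, 29.8 and 31.9 FPKM in ETOH-WT livers and 1.48, 3.14 and 9.20 FPKM in PF-WT livers (log2 difference 2.43, adjusted p = 0.0285), and lost its call without ETOH-WT liver 2 (0.0718), ETOH-WT liver 3 (0.106), PF-WT liver 1 (0.0557) or PF-WT liver 2 (0.106). Of the 5, only 2 were called without ETOH-WT liver 3, 2 without PF-WT liver 1 and 1 without PF-WT liver 2. Of the other genes, Mgst1, a microsomal enzyme and the most abundant transferase in the table, was at 3145, 4032 and 3869 FPKM in ETOH-WT livers and 3049, 3071 and 3782 FPKM in PF-WT livers, with overlap.

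Of 17 tested genes that make or recycle glutathione, 2 were higher and none was lower, beside 3.97% higher and 2.67% lower of all genes tested. Before adjustment 6 were higher and 3 lower at a p under 0.05, a level that 23.7% of all genes tested reached in either direction. The median log2 difference was 0.19, and the 17 genes found summed to 1576 to 1776 FPKM in ETOH-WT livers and 1418 to 1478 FPKM in PF-WT livers, without overlap. Gss, glutathione synthetase, was at 51.5, 55.2 and 54.2 FPKM in ETOH-WT livers and 33.7, 20.4 and 17.6 FPKM in PF-WT livers (log2 difference 1.19, adjusted p = 0.0189). Slc25a39, which carries glutathione into mitochondria, was at 398, 421 and 444 FPKM in ETOH-WT livers and 270.1, 292 and 311 FPKM in PF-WT livers (log2 difference 0.53, adjusted p = 0.020). Neither passed without PF-WT liver 2 (0.0823 and 0.0934) or without ETOH-WT liver 3 (0.0739 and 0.0881), and Slc25a39 also missed without PF-WT liver 1 (0.0528).

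Of 18 tested genes that export conjugates or turn them into mercapturates, 2 were higher and 1 was lower (3 higher and 1 lower at a p under 0.05 before adjustment). Of all genes tested, 6.64% were called and 23.7% had a p under 0.05 before adjustment. The median log2 difference was 0.03, beside 0.02 over all genes tested. Abcc3, an exporter of conjugates across the basolateral membrane, was at 65.9, 63.2 and 81.7 FPKM in ETOH-WT livers and 34.8, 26.4 and 32.7 FPKM in PF-WT livers (log2 difference 1.14, adjusted p = 0.00549, and at most 0.0248 with 1 liver left out). Abcg2, an exporter at the canalicular membrane, was barely called (log2 difference 0.41, adjusted p = 0.0495) and missed in each of the fits with 1 liver left out (0.054 to 0.192). Nat8f1, of the N-acetyltransferase 8 family, was at 67.0, 90.8 and 54.8 FPKM in ETOH-WT livers and 160, 134 and 119 FPKM in PF-WT livers. It was lower by limma with a log2 difference of -0.97 (adjusted p = 0.0253), but not without ETOH-WT liver 1 (0.0611), ETOH-WT liver 3 (0.0786), PF-WT liver 1 (0.0648) or PF-WT liver 2 (0.0905).

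Of 18 tested transcription factors and partners known to act on transferase genes, 3 were higher and none was lower (before adjustment 7 higher and 1 lower at a p under 0.05). Of all genes tested, 3.97% were called higher and 2.67% lower, and 23.7% had a p under 0.05 before adjustment. The median log2 difference was 0.09, beside 0.02 over all genes tested. The 18 genes summed to 806 to 953 FPKM in ETOH-WT livers and 676 to 742 FPKM in PF-WT livers, without overlap. These sums include Nr1i3 and Hnf4a, which were both called. Nr1i3, the drug-sensing receptor CAR, was at 227, 163 and 224 FPKM in ETOH-WT livers and 140, 120 and 116 FPKM in PF-WT livers (log2 difference 0.70, adjusted p = 0.031), and its adjusted p exceeded 0.05 without ETOH-WT liver 1 (0.0763), ETOH-WT liver 3 (0.119), PF-WT liver 2 (0.122) or PF-WT liver 3 (0.0765). Hnf4a, a hepatocyte nuclear receptor, was at 155, 158 and 157 FPKM in ETOH-WT livers and 113, 110 and 114 FPKM in PF-WT livers (log2 difference 0.48, adjusted p = 0.013), and missed without ETOH-WT liver 3 (0.0639) or PF-WT liver 2 (0.0812). The remaining one, Nr1i2, the receptor PXR, had an adjusted p of 0.0459 and missed in each of the fits with 1 liver left out (0.0567 to 0.114). No gene of this list was called without ETOH-WT liver 3 or without PF-WT liver 2.

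Markers of zonation, other cell types and sex were read beside these results. Their counts stand beside 6.64% of all genes tested that were called and 23.7% with an unadjusted p under 0.05. Of 9 pericentral markers, 2 were higher (Cyp1a2 and Slc1a2) and none was lower. Before adjustment, 4 were higher and none lower at a p under 0.05. The pericentral markers summed to 4723 to 5161 FPKM in ETOH-WT livers and 3664 to 5346 FPKM in PF-WT livers, with overlap. Most of that sum was Cyp2e1, with means of 3865 and 3453 FPKM. Of 9 periportal markers, 1 was higher (Hsd17b13) and 1 lower (Sds), and their sums overlapped. Before adjustment, 2 of the periportal markers were higher and 1 lower at a p under 0.05. None of these pericentral and periportal calls held without PF-WT liver 2. None of the tested markers of Kupffer, endothelial and stellate cells, cholangiocytes, neutrophils, lymphocytes and erythroid cells passed limma. At an unadjusted p under 0.05, 2 neutrophil markers were higher, and 1 stellate, 1 cholangiocyte and 2 erythroid markers were lower. Cholangiocyte markers summed to 22.1 to 29.8 FPKM in ETOH-WT livers and 32.1 to 39.7 FPKM in PF-WT livers, most of it Spp1, at 27.2, 20.1 and 20.4 FPKM in ETOH-WT livers and 29.4, 35.6 and 31.1 FPKM in PF-WT livers (adjusted p = 0.0668). The other 5 were at 1.06 FPKM or less in every liver, and Krt7 alone of them did not overlap between the diets.

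Some genes known to be biased by sex in liver differed between the diets in these livers, all from females. Of 8 female-biased genes 3 were lower and none was higher (5 lower and 1 higher at a p under 0.05 before adjustment), and the median log2 difference was -1.53. A1bg was at 0.751, 3.44 and 0.363 FPKM in ETOH-WT livers and 46.5, 84.4 and 33.5 FPKM in PF-WT livers, and Cyp3a44 and Sult3a1 were the others. Only 1 of the 3 was called without ETOH-WT liver 1, ETOH-WT liver 3 or PF-WT liver 2. The 8 genes summed to 607 to 795 FPKM in ETOH-WT livers and 778 to 974 FPKM in PF-WT livers, with overlap. Cyp2b9, the gene with the highest FPKM of the 8, went the other way. It was at 561, 431 and 458 FPKM in ETOH-WT livers and 278, 305 and 404 FPKM in PF-WT livers. Its log2 difference of 0.56 did not pass limma (adjusted p = 0.0793). Of 8 male-biased genes listed, 4 were found in the table, and Cyp2d9 was higher. It was at 68.5, 70.6 and 109 FPKM in ETOH-WT livers and 20.7, 16.5 and 14.6 FPKM in PF-WT livers. Mup20, Cyp7b1 and Elovl3 did not pass, with log2 differences of 0.49, -0.16 and -0.30. With Cyp2d9 included, the 4 summed to 126 to 165 FPKM in ETOH-WT livers and 52.0 to 73.6 FPKM in PF-WT livers. The part of zonation, other cells and sex-biased expression in the transferase results was not tested.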

How the data were processed

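RNA-seq libraries from the livers of 3 ETOH-WT mice and 3 PF-WT mice were analyzed. The authors deposited 1 table of FPKM, with 1 column per library, a unit inferred from the values. The paper names STAR, HTSeq-count and DESeq2 on GRCm38, whereas mm10, TopHat2 2.0.11, HTSeq 0.11.2 and 1.6.3 and cutadapt stand in the submitters' processing notes without a role or order. The sources used here do not give the step from counts to FPKM or say whether counting used strand. Because FPKM are not counts, DESeq2 was not run. No steps of single fragments stood out among low values, so the depth is unknown, and n = 3 per diet limits the precision.

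The deposited FPKM were taken to the log2(FPKM + 1) scale. Genes averaging at least 0.5 FPKM were fitted with limma 3.58.1 in R 4.3.3 (lmFit, eBayes with a trend, diet as the only term). P-values were two-sided, adjusted by Benjamini-Hochberg over all 11346 genes and called under 0.05. They set each difference against the spread between livers of the same diet, which eBayes draws partly from other genes (prior and residual degrees of freedom of 4 each). A cage or cohort that goes with the diet is not part of that spread. The difference on this scale understates changes of low genes. Where 1 liver was left out, the filter and the adjustment were repeated. Of 13273 rows, 25 repeat a gene name, and for the 10 genes and the lists the row with the higher mean was taken, while the fit held all rows. Of 13248 rows, 80.1% had the coordinates of GENCODE vM21 on GRCm38, and start positions in the table were counted from 0 and are given from 1. Coding sequences and stretches of 51 bases were taken from GENCODE vM21 and start windows from RefSeq on GRCm38.p6. The procedure was tested on simulated data. Python 3.11.15 with pandas 2.3.3, numpy 2.4.6 and matplotlib 3.10.9 was used for the rest.

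The 10 genes and all lists were chosen with earlier results of these data known. Named are the 10 genes, up to 2 highest and 2 lowest called genes of each pathway list, called genes within 150000 bases of the 10, and the 3 genes most correlated with the leading gene of each class. Other genes were named after their values were seen, as were the ratios within a liver. Alternatives were pseudocounts of 0.1 and 2, no filter, a minimum mean of 1 FPKM, median-ratio scaling, quantile normalization, array weights, eBayes without a trend, the replicate number as a block, and each liver left out in turn.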

Additional observations from a re-analysis of the deposited data

How the results depend on the processing

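Gstm1, Gstm3 and Gstt2 passed limma in the same direction under every alternative run, and Gstm6 under all but 4 of the fits with 1 liver left out. The 10 genes gave 60 values with 1 liver left out, of which 47 kept direction and side of the threshold, 4 lost a call, 3 gained one and 6 changed sign, and 90 values under the other alternatives, of which 81 kept both, 6 gained a call and 3 changed sign. All changes of sign were in Gstt1 and Gstt3, which did not pass in any fit. The log2 difference of Gstt1 was -0.02 with median-ratio scaling, -0.11 with quantile normalization, -0.01 with array weights, -0.06 without ETOH-WT liver 2, -0.03 without PF-WT liver 1 and up to 0.07 without any other liver. That of Gstt3 was 0.05 without ETOH-WT liver 1, 0.02 without ETOH-WT liver 3, 0.05 without PF-WT liver 2, 0.24 without PF-WT liver 3 and down to -0.32 without any other liver. With array weights 7 of the 10 genes and 2272 of all genes were called. With 1 liver left out, 3 to 5 of the 10 genes and 159 to 647 of all genes were called, the log2 ratio of the mu sums was 0.95 to 1.18 and that of the theta sums 0.02 to 0.20. With median-ratio scaling 49.8% of all calls were higher, against 59.8% without it. With the replicate number as a block, 454 of all genes and 5 of the 10 were called, Gstm4 being added (adjusted p = 0.0335). Across all genes, livers of the same number did not deviate together (r of -0.01, -0.02 and -0.03). A correlation over all genes cannot show whether a pairing touches some of them, and no pairing is given beyond the number. An exact test of 3 livers against 3 cannot go below 0.1, the depth is unknown, and stretches shared with other transcripts limit how far the FPKM of Gstm1, Gstm3 and Gstt3 can be told apart from them.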
